A study of Mus musculus with 5 samples.

Results

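*Isg15*, *Iigp1*, *Cxcl9* and *Cxcl10* are 4 genes that interferons switch on, and they were taken by gene name from the table of genes that differed between *Irf8*-OE and control bone marrow-derived dendritic cells (BMDCs). All 4 of the 4 names were found among the 1355 genes of that table. RNA-seq covered 3 *Irf8*-OE samples and 2 control samples, all grown from bone marrow of 8-week-old mice in medium with the myeloid growth factor GM-CSF at 5 ng/ml and the dendritic cell growth factor Flt3L at 200 ng/ml, and collected on days 15 to 16. The *Irf8*-OE cells carry a CAG-driven *Irf8* cassette behind a loxP-flanked stop together with *Itgax* Cre, so the extra *Irf8* depends on Cre made in CD11c-expressing cells. The controls are called wild type in the sample labels and *Irf8* CAG-LSL, the cassette without Cre, in the study's text. The labels give TNF-α stimulation for every sample of both groups, and the methods give 20 ng/ml as the concentration that could be added. The sources do not say whether the samples of a group came from separate animals. The p-values below therefore rest on the spread between these samples, which may be technical.

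Interferons bind receptors that activate STAT and IRF transcription factors, which turn on interferon-stimulated genes. *Isg15* encodes a ubiquitin-like protein that is attached to other proteins, and type I interferon induces it strongly. *Iigp1* encodes an immunity-related GTPase, one of a family that acts on the vacuoles of intracellular parasites and bacteria and is strongly induced by IFN-γ. *Cxcl9* and *Cxcl10* encode chemokines that attract activated T cells and NK cells through the receptor CXCR3. *Cxcl9* depends mostly on IFN-γ, whereas *Cxcl10* also responds to type I interferon and to NF-κB. IRF8 itself is an interferon regulatory factor needed for cDC1, the conventional dendritic cells that cross-present antigen to CD8+ T cells.

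*Isg15* (ENSMUSG00000035692) lies on the minus strand of chromosome 4 of mm10, from 156199424 to 156200818, with 2 exons. *Cxcl9* (ENSMUSG00000029417) and *Cxcl10* (ENSMUSG00000034855) are neighbours on the minus strand of chromosome 5, from 92321347 to 92328079 and from 92346638 to 92348889, with 4 exons each and 18559 bases between them. Of the 2252 exon bases of *Cxcl10*, 133 are shared with exons of *Art3* on the other strand, and reads from there cannot be told apart without strand, whose use in counting is not given in the sources used here. *Agrn* was the nearest listed gene to *Isg15*, 1936 bases away, and beyond the chemokine pair the nearest on chromosome 5 was *Stbd1*, 254152 bases from *Cxcl10*.

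The 250 bases upstream of the start are shown for the 3 genes with an entry in the RefSeq promoter table of GRCm38.p6, because the genes are grouped here by their induction and these are the stretches in which the letters of interferon and NF-κB motifs were looked for. Capitals mark every match, on either strand, to the ISRE core (GAAA and GAAA with NN between them), to the GAS letters TTCNNNGAA, to the ETS-IRF composite (GGAA and GAAA with NN between them, which can overlap an ISRE core) or to the κB letters GGGNNTTCC. The windows are chr4:156200819-156201068, chr5:92328080-92328329 and chr5:92348890-92349139, all on the minus strand and printed 5′ to 3′ toward the gene.
Isg15: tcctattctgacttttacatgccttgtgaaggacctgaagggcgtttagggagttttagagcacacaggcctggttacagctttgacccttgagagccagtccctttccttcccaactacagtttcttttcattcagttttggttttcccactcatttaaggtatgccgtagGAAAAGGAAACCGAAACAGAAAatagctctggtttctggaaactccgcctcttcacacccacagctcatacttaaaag
Cxcl9: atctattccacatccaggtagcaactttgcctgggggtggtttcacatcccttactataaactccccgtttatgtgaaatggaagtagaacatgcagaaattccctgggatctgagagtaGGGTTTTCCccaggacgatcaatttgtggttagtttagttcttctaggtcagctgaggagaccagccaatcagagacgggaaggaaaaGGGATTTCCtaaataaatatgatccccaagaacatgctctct
Cxcl10: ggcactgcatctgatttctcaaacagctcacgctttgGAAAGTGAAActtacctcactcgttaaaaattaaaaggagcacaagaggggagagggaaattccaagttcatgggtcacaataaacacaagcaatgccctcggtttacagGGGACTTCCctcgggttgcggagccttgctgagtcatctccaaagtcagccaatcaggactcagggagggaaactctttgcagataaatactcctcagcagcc
In *Isg15* the capitals are 3 overlapping ISRE core matches, at positions -78 to -57, counted back from -1, the base before the start. *Cxcl10* held 1 ISRE core match at -213 to -204 and 1 κB match at -103 to -95. *Cxcl9* held 2 κB matches, at -130 to -122 and at -42 to -34. The ISRE core letters were found in 2.98% of the 32851 promoter windows of this length, the GAS letters in 7.02%, the ETS-IRF composite letters in 2.30% and the κB letters in 4.98%. A match is a run of letters, not a measured binding site, and windows without one say nothing about the factor.

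The values are normalized counts, in which reads were scaled by a size factor of each sample. The table holds only genes that the authors had already called as different in these same samples, so a difference between the groups was a condition for being listed. Genes outside the table are not analysed here. The listed genes held between 646123 and 1062127 reads per sample, a total over listed genes and not a library size, and 1 read was worth 0.934 to 1.12 normalized counts. *Irf8* had 7141, 6519 and 6021 normalized counts in *Irf8*-OE samples 1, 2 and 3 and 2835 and 2747 in control samples 1 and 2. All mice were described as male, yet *Xist*, the RNA of the inactive X chromosome, had 10772 to 13476 normalized counts in *Irf8*-OE and at most 1.12 in the controls, and no *Irf8*-OE sample had a read of the Y-linked *Uty*, *Kdm5d*, *Eif2s3y* or *Ddx3y*. Every *Irf8*-OE library therefore goes against the stated sex, and genotype and sex cannot be told apart in any comparison below. In bulk RNA, more cells of a type and more RNA per cell cannot be told apart either.

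*Isg15* was the most abundant of the 4 genes. It had 338, 298 and 264 normalized counts in *Irf8*-OE samples 1, 2 and 3, and 69.7 and 76.8 in control samples 1 and 2. The groups did not overlap, which holds for 100% of the listed genes and so for each of the 4 genes here. The lowest *Irf8*-OE sample was 3.44 times the higher control. *Irf8*-OE samples averaged 300.1 ± 37.2 (SD, n = 3) and controls 73.2 ± 5.01 (SD, n = 2). On the scale log2(normalized counts + 1) the difference was 2.01 (SE 0.14, adjusted p = 1.2e-05 from limma).

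*Iigp1* (ENSMUSG00000054072) is on the plus strand of chromosome 18 of mm10, where the authors' table places it from 60376029 to 60392627. It was less abundant than *Isg15*, and the order of their log2 fold changes depended on the processing, with *Iigp1* the lower with a pseudocount of 10 (1.86 against 1.89) and after quantile normalization (1.76 against 1.86). Its normalized counts were 69.0, 74.7 and 100.4 in *Irf8*-OE and 14.6 and 15.4 in the controls. Sample 3 stood above the other *Irf8*-OE samples, the controls lay within 1 normalized count of each other, and every *Irf8*-OE sample was above both. The means were 81.4 ± 16.7 (SD, n = 3) and 15.0 ± 0.526 (SD, n = 2), with a log2 fold change of 2.35 (SE 0.24, adjusted p = 7.3e-05 from limma).

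*Cxcl10* had a smaller log2 fold change than *Isg15* and *Iigp1* as reported and under each of the 17 alternatives. Its normalized counts were 133, 118 and 165 in *Irf8*-OE and 56.2 and 42.2 in the controls. Sample 3 was again the highest and sample 2 the lowest of the *Irf8*-OE samples, and the groups did not overlap. The means were 139 ± 24.0 (SD, n = 3) and 49.2 ± 9.88 (SD, n = 2), and the log2 fold change was 1.47 (SE 0.21, adjusted p = 0.00038 from limma).

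*Cxcl9* was detected by few reads. It had 11, 15 and 22 reads in *Irf8*-OE samples 1, 2 and 3, and 2 and 3 reads in the control samples. As normalized counts these are 10.5, 14.0 and 22.1 against 2.25 and 2.88. The groups did not overlap, but both controls were at or under the 3 reads taken here as the floor of detection. The means were 15.5 ± 5.93 (SD, n = 3) and 2.56 ± 0.446 (SD, n = 2), and the log2 fold change was 2.16 (SE 0.38, adjusted p = 0.0010 from limma). This value depends on the pseudocount, since with 10 added in place of 1 it was 0.999, just under the threshold of 1, and after quantile normalization it was 0.52 (adjusted p = 0.28 from limma). Pooled over samples, 48 reads against 5 gave a ratio of 5.96 with an exact 95% counting interval of 2.39 to 19.2. The same interval was 3.42 to 4.91 around a ratio of 4.09 for *Isg15* (935 reads against 142), 3.67 to 8.23 around 5.40 for *Iigp1* (252 against 29) and 2.26 to 3.58 around 2.83 for *Cxcl10* (429 against 94). These intervals cover counting error only, and they overlap between *Cxcl9* and each of the other genes.

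**Figure D1:**
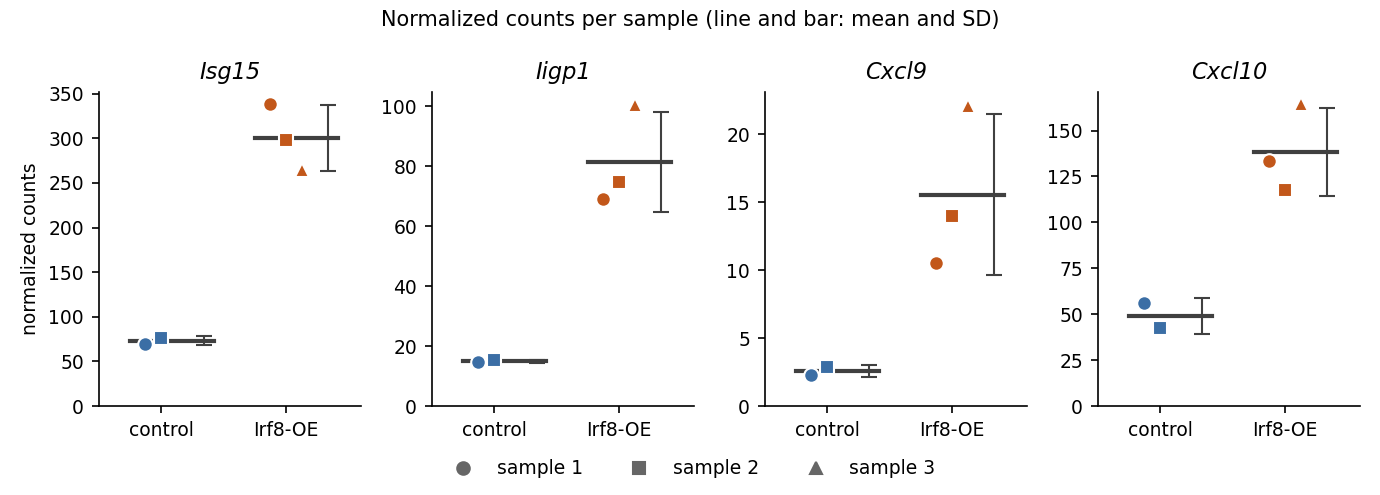
Normalized counts of *Isg15*, *Iigp1*, *Cxcl9* and *Cxcl10* in each sample, with control samples in blue and *Irf8*-OE samples in orange and the marker shape giving the sample number. The horizontal line is the group mean and the bar beside the points is 1 SD. The axes start at 0 and differ between genes. In each gene every *Irf8*-OE sample lies above both controls, as in 58.8% of all listed genes. Sample 1 is highest for *Isg15* and sample 3 for the other genes.

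By limma, at an adjusted p under 0.05 and a log2 fold change beyond 1 in either direction, 4 of the 4 genes were called higher in *Irf8*-OE. Among all listed genes 58.1% were called higher, 41% lower and 99.1% in either direction, so being called carries little beyond being listed. Every *Irf8*-OE sample was above both controls in 4 of the 4 genes and in 58.8% of all listed genes, and the groups did not overlap, in either direction, in 100% of them. With 3 samples against 2 there are 10 splits, and for each of the 4 genes the exact permutation test gave a one-sided p of 0.1 and a two-sided p of 0.2, the smallest that the design allows. The median log2 fold change of the 4 genes was 2.09, against 1.83 for the 787 genes called higher and 1.14 for all listed genes. Among the 797 listed genes with a positive log2 fold change, *Iigp1* ranked 265 from the largest, *Cxcl9* 297, *Isg15* 332 and *Cxcl10* 510. None of the 4 was therefore among the extreme changes of the table. *Irf8* itself, at a log2 fold change of 1.23, ranked 630.

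The spread within *Irf8*-OE differed between the genes. The coefficient of variation over the 3 samples was 12.4% for *Isg15*, 17.3% for *Cxcl10*, 20.6% for *Iigp1* and 38.1% for *Cxcl9*. Counting error alone would give an SD of 17.0 normalized counts for *Isg15*, 11.6 for *Cxcl10*, 8.88 for *Iigp1* and 3.89 for *Cxcl9*. The measured SDs were larger than that in each case, by the widest margin for *Isg15*. Its highest sample was sample 1, as for *Irf8*, and its lowest was sample 3, again as for *Irf8*, whereas *Iigp1*, *Cxcl9* and *Cxcl10* were highest in sample 3. With 3 samples this order is a description. The sample that was highest was sample 1, 2 or 3 for 13, 12 and 11 of the 36 other interferon-list genes called higher, *Irf8* among them. It was sample 1, 2 or 3 for 312, 200 and 275 of all 787 genes called higher.

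Levels can be set beside each other only per length of the gene. In normalized counts per kilobase of the listed gene length, *Isg15* averaged 397 ± 49.1 (SD, n = 3) in *Irf8*-OE against 96.9 ± 6.63 (SD, n = 2). *Cxcl10* followed with 61.5 ± 10.6 and 21.9 ± 4.39, *Iigp1* with 26.1 ± 5.37 and 4.80 ± 0.168, and *Cxcl9* with 5.16 ± 1.97 and 0.850 ± 0.148, for the same numbers of samples. The order was the same in each of the 5 samples, and within a group no gene overlapped its neighbour in it. The listed length of *Cxcl10*, 2252 bases, equals its whole span on the chromosome, introns included. Its transcript with the longest coding sequence has 294 coding and 800 untranslated bases. Over that transcript alone its values per kilobase would be higher, by the same factor in every sample. *Isg15* was higher per kilobase than 91.7% of the listed genes in *Irf8*-OE and 76.6% of them in the controls. *Cxcl9* was higher than 16.4% and 11.9%.

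The proportion of the 2 CXCR3 ligands was read in each sample. Per kilobase, *Cxcl10* was 33.5 and 19.6 times *Cxcl9* in the controls and 16.9, 11.2 and 9.98 times *Cxcl9* in *Irf8*-OE samples 1, 2 and 3. The groups did not overlap in this ratio, but the control ratios rest on the 2 and 3 reads of *Cxcl9*, and with the overlapping counting intervals of both genes a fixed proportion is not excluded. *Cxcl10* was 5.33 and 3.81 times *Iigp1* in the controls and 2.68, 2.18 and 2.27 times *Iigp1* in *Irf8*-OE, again without overlap. Both ratios use the listed length of *Cxcl10*, and over its coding transcript alone they would be higher, by the same factor in every sample. *Isg15* was 19.7 and 20.6 times *Iigp1* in the controls and 20.2, 16.5 and 10.9 times in *Irf8*-OE, where sample 1 lay between the controls.

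**Figure D2:**
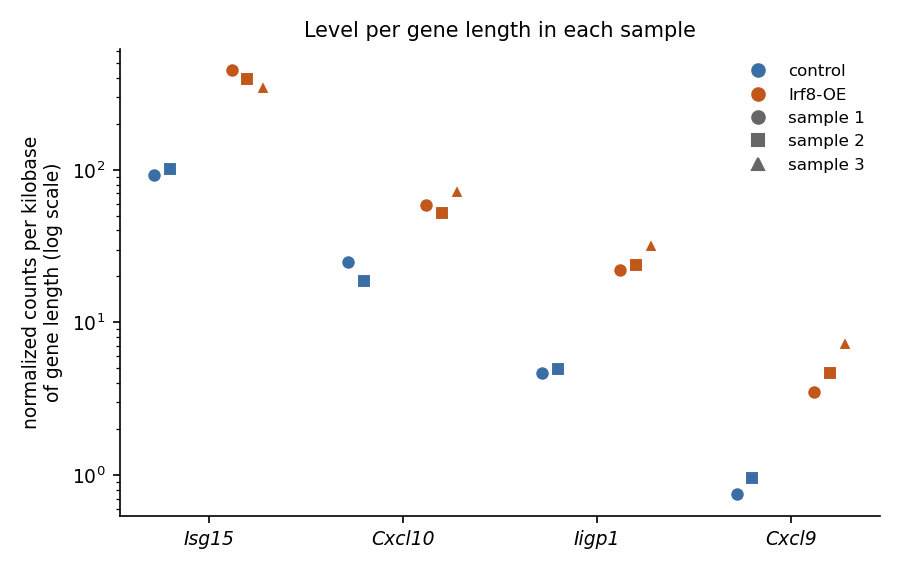
Normalized counts per kilobase of gene length, on a log axis, for the 4 genes in each sample, with control samples in blue and *Irf8*-OE samples in orange. *Isg15*, *Cxcl10*, *Iigp1* and *Cxcl9* keep this order from high to low in all 5 samples.

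The other genes of the same pathways were taken from lists that cover interferons and their receptors, JAK, STAT and IRF signalling, negative regulators, ISG15 conjugation, the GTPase families, CXCR3 ligands and further antiviral genes. Of the 179 genes in these lists besides the 4, 38 were listed, and 36 of the 38 were called higher and 2 lower, beside 58.1% called higher among all listed genes. Their median log2 fold change was 1.74, against 1.14 for all listed genes. The 38, the 36 and this median include *Irf8*, the gene that was overexpressed. The lists were drawn up with earlier results of these data known, and the listed genes had been selected on these samples, so the count is a description.

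None of the 27 interferon and interferon receptor genes was listed. The transcription factor list had 2 of 14 genes in the table. *Irf7*, a factor of the type I interferon response that is itself induced by it, had 427, 392 and 367 normalized counts in *Irf8*-OE and 97.8 and 118 in the controls, and its log2 fold change was 1.87 (SE 0.13, adjusted p = 1.0e-05 from limma). The other was *Irf8*.

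In the ISG15 conjugation list, 2 of 7 genes were listed. Besides *Isg15* this was *Usp18*, the protease that removes ISG15 from proteins and also restrains interferon receptor signalling. It had 701, 682 and 599 normalized counts in *Irf8*-OE and 336 and 320 in the controls, and its log2 fold change was 1.01 (SE 0.10, adjusted p = 5.3e-05 from limma). *Socs1*, an inhibitor of JAK kinases, went the other way, with 826, 723 and 960 normalized counts in *Irf8*-OE and 1994 and 1865 in the controls. Its log2 fold change was -1.21 (SE 0.12, adjusted p = 6.2e-05 from limma). *Usp18* and *Socs1* were the listed genes of the 9 negative regulators.

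Of 14 immunity-related GTPases, *Iigp1* and *Gm12250* were listed. *Gm12250*, which encodes Irgb10, had 219.5, 179 and 219.95 normalized counts in *Irf8*-OE and 64.1 and 85.4 in the controls, and its log2 fold change was 1.46 (SE 0.17, adjusted p = 0.00016 from limma). The near-identical members of this family can share reads, and how the authors' counting treated such reads is not given in the sources used here. None of the 11 guanylate-binding protein genes was listed. Of the CXCR3 list, *Cxcl9* and *Cxcl10* were the listed genes out of 4.

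The list of other antiviral interferon-stimulated genes had 33 of 98 genes in the table, 32 called higher and 1 lower. The most abundant were *Ifitm3*, *Ly6c2* and *Slfn5*. *Ifitm3*, which blocks virus entry, averaged 11254 ± 1092 (SD, n = 3) normalized counts with extra *Irf8* and 4761 ± 119 (SD, n = 2) without it, and its log2 fold change was 1.24. *Ly6c2*, a surface protein that is also a marker of monocytes, averaged 4045 ± 143 against 1257 ± 94.7, with a log2 fold change of 1.69. *Slfn5* averaged 1223 ± 69.9 against 583 ± 36.0, with a log2 fold change of 1.07. The gene called lower was *Dtx3l*, a ubiquitin ligase, with 154, 178 and 182 normalized counts in *Irf8*-OE against control values of 1116 and 1043, and its log2 fold change was -2.65. It was chosen for naming after its values were seen, as the exception. ISRE core letters were found upstream of 17 of the 30 other interferon-list genes that were called higher and have a promoter entry (56.7%). They were found upstream of 7.98% of the 501 listed genes called higher with an entry and of 4.21% of the 380 called lower. Among all 27025 genes with an entry the share was 3.46%. The lists were chosen as interferon pathway and interferon-stimulated genes, so a high share goes with that choice and is no result about *Irf8*-OE. The share in list genes outside the table was not computed. The 501 include these 30 and the described genes with an entry, so the sets are not separate. The 40 of the 501 that held these letters include the 17 genes above, *Isg15* and *Cxcl10*. The 7.98% is therefore not a share of genes outside the lists, and a share without them was not computed. Of the same 30 genes, 5 (16.7%) held the GAS letters, 3 (10%) the κB letters and 2 (6.67%) the ETS-IRF composite letters, against 8.13%, 5.61% and 2.68% of all genes with an entry.

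**Figure D3:**
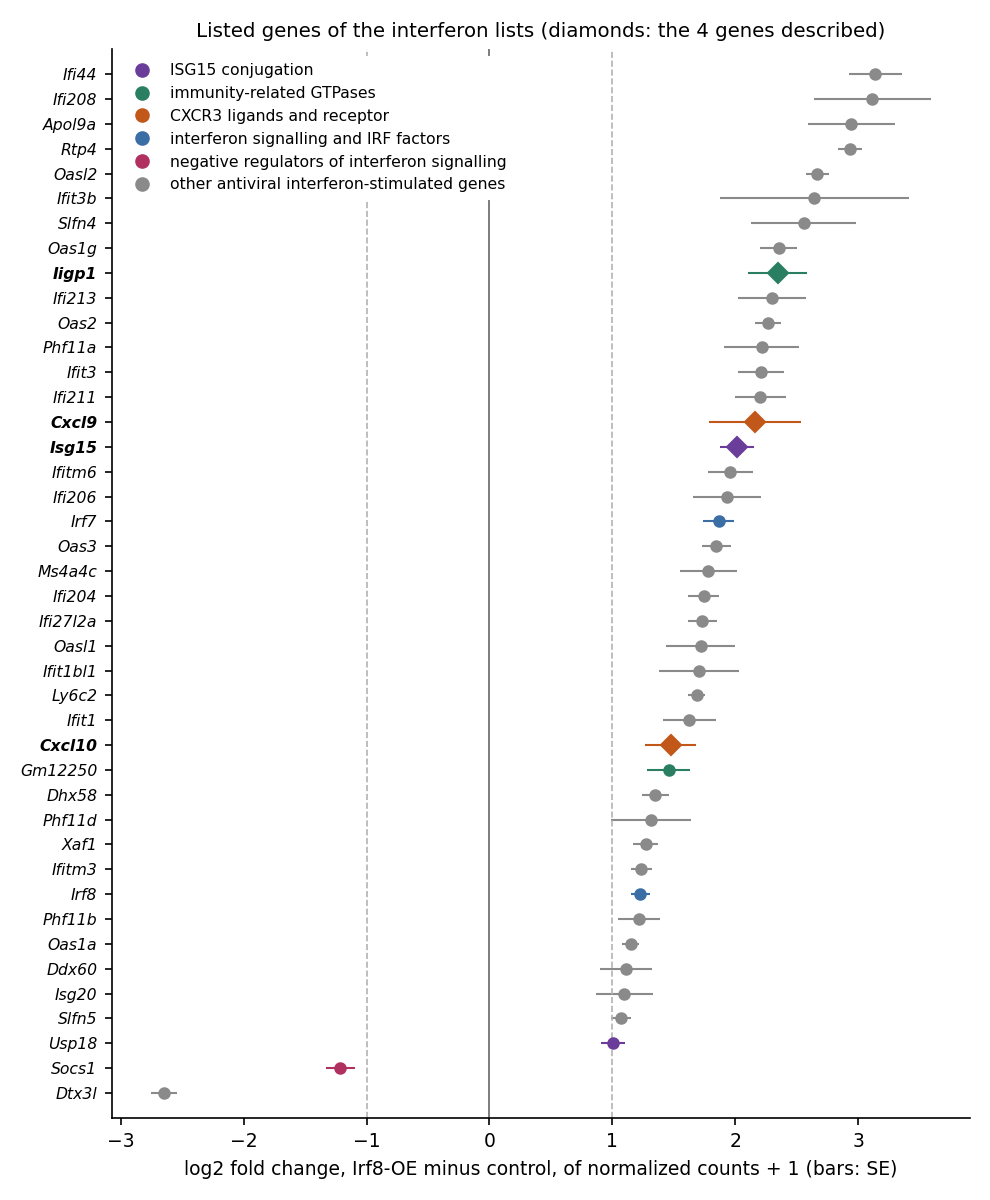
Log2 fold change of *Irf8*-OE minus control, on the scale log2(normalized counts + 1), with its SE from limma, for the 42 listed genes of the interferon lists; colours give the list and diamonds mark *Isg15*, *Iigp1*, *Cxcl9* and *Cxcl10*. The 4 genes lie between 1.47 and 2.35 among 40 genes above 0, and *Socs1* and *Dtx3l* lie below it. Dashed lines mark the threshold of 1 in either direction.

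TNF-α was part of the treatment of both groups, and genes of the TNF and NF-κB response were read beside the chemokines. Of 54 such genes 8 were listed, 7 called higher and 1 lower, beside 58.1% called higher among all listed genes. *Cxcl2*, a neutrophil chemokine, had 3199, 3615 and 4365 normalized counts in *Irf8*-OE and 737 and 748 in the controls, and its log2 fold change was 2.31. *Cxcl5*, also a neutrophil chemokine, had a log2 fold change of 2.53, and *Ptgs2*, which encodes the cyclooxygenase COX-2, of 1.27. The gene called lower was *Il6*, an inflammatory cytokine, with 318, 332 and 418 normalized counts in *Irf8*-OE against 804 and 715 and a log2 fold change of -1.10. It too was named after its values were seen.

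The listed genes whose profile over the 5 samples was closest to each of the 4, by Euclidean distance between log2 values centred on each gene's mean, were sought among the 1249 genes with a mean of at least 10 normalized counts. The closest to *Isg15* were *Fxyd2* (distance 0.158), *Col1a2* (0.166) and *Slc27a3* (0.182). The closest to *Iigp1* were *Chst10* (0.105), *Cxcl2* (0.118) and *Dennd5b* (0.218). For *Cxcl10* they were *Ppm1n* (0.146), *Ebf1* (0.227) and *Fam167b* (0.240), and for *Cxcl9* they were *Iigp1* (0.411), *Rab39* (0.416) and *Cxcl1* (0.417). Among the 4 genes themselves the closest pair was *Iigp1* and *Cxcl9*, and the others lay 0.740 to 1.04 apart. The distances of *Cxcl9* were larger than those of the other genes. With a pseudocount of 10 the 3 nearest genes shared 2 of these 12 names, and with Pearson's correlation 1, so the names are not a stable set.

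Markers of other cell types were listed too, and a difference between the groups was the condition for listing them. Their counts here and in the next paragraph stand beside 58.1% called higher and 41% called lower among all listed genes. The part of these markers in the results above was not tested. The 7 listed genes of the 16 macrophage and monocyte markers were all called higher, with summed normalized counts of 25559 to 30689 in *Irf8*-OE and 5464 to 5514 in the controls. *C1qb* and *C1qc*, subunits of complement C1q, were the most abundant, with log2 fold changes of 2.19 and 2.46. The mast cell and basophil list had 10 of 12 markers listed, 2 called higher and 8 lower, with sums of 36718 to 40513 in *Irf8*-OE and 235801 to 240274 in the controls. The list split by direction, and its sum is mostly *Cpa3*. *Cpa3* and *Tpsb2*, mast cell proteases, had log2 fold changes of -3.00 and -2.58, and *Cpa3* alone took 17.3% and 17.6% of all reads on listed genes in control samples 1 and 2. The markers called higher were the basophil proteases *Prss34* and *Mcpt8*, with log2 fold changes of 3.64 and 2.79 and means of 1453 and 1233 normalized counts in *Irf8*-OE against 118 and 178. In the marker lists here and in the next paragraph, genes beyond the most abundant pair were named after their values were seen. They belong to lists that held genes of both directions.

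Of the 10 plasmacytoid dendritic cell markers, the type I interferon-producing dendritic cells, *Siglech* and *Ly6d* were listed. Their sum was 25.9 to 41.1 normalized counts in *Irf8*-OE and 0 to 3.84 in the controls, where *Siglech* had 0 reads. Of 15 T cell and natural killer cell markers, the cells that make IFN-γ, 5 were listed, 3 called higher and 2 lower, with sums of 453 to 501 in *Irf8*-OE and 1209 to 1345 in the controls. *Gzmb*, a granule protease of killer cells that carries most of this sum, and the transcription factor *Eomes* were lower, with log2 fold changes of -1.66 and -1.04. The T cell genes *Lck*, *Cd4* and *Cd3e* were higher, with log2 fold changes of 1.54, 1.87 and 2.69, and *Cd3e*, part of the T cell receptor complex, had 1.92, 5.60 and 13.1 normalized counts in *Irf8*-OE and 0 in both controls. B cell and plasma cell markers had 7 of 12 listed, all called higher, with *Ighm* and *Igha* the most abundant and sums of 3523 to 3983 against 209 to 251. Stromal markers had 7 of 12 listed, 6 higher and 1 lower, with *Col1a2* and *Sparc* at log2 fold changes of 1.94 and 1.58 and sums of 10949 to 11968 against 3173 to 3294. The lower one was *Lepr*, the leptin receptor, with a log2 fold change of -1.66 and a mean of 212 normalized counts against 672. Neutrophil markers had 4 of 11 listed, 3 higher and 1 lower, with *Mpo* and *Csf3r* at log2 fold changes of 6.40 and 1.38 and sums of 1637 to 1681 against 405 to 488. The lower one was *Ly6g*, a surface marker of mature neutrophils, with a log2 fold change of -3.98 and a mean of 9.68 normalized counts against 164. None of the 8 general dendritic cell markers, *Itgax* among them, was listed, so the labelled cell type could not be checked with them. Of the 10 cDC1 markers 4 were listed, 3 called higher and 1 lower. *Tlr11* and *Itgae*, the gene of CD103, were higher, with log2 fold changes of 1.75 and 1.62, as was the overexpressed *Irf8* itself, while *Cd24a* was lower, with a log2 fold change of -1.38. Their sum, 10258 to 10895 in *Irf8*-OE and 12579 to 13232 in the controls, is almost all *Cd24a* and *Irf8* and runs against 3 of the 4 genes.

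**Figure D4:**
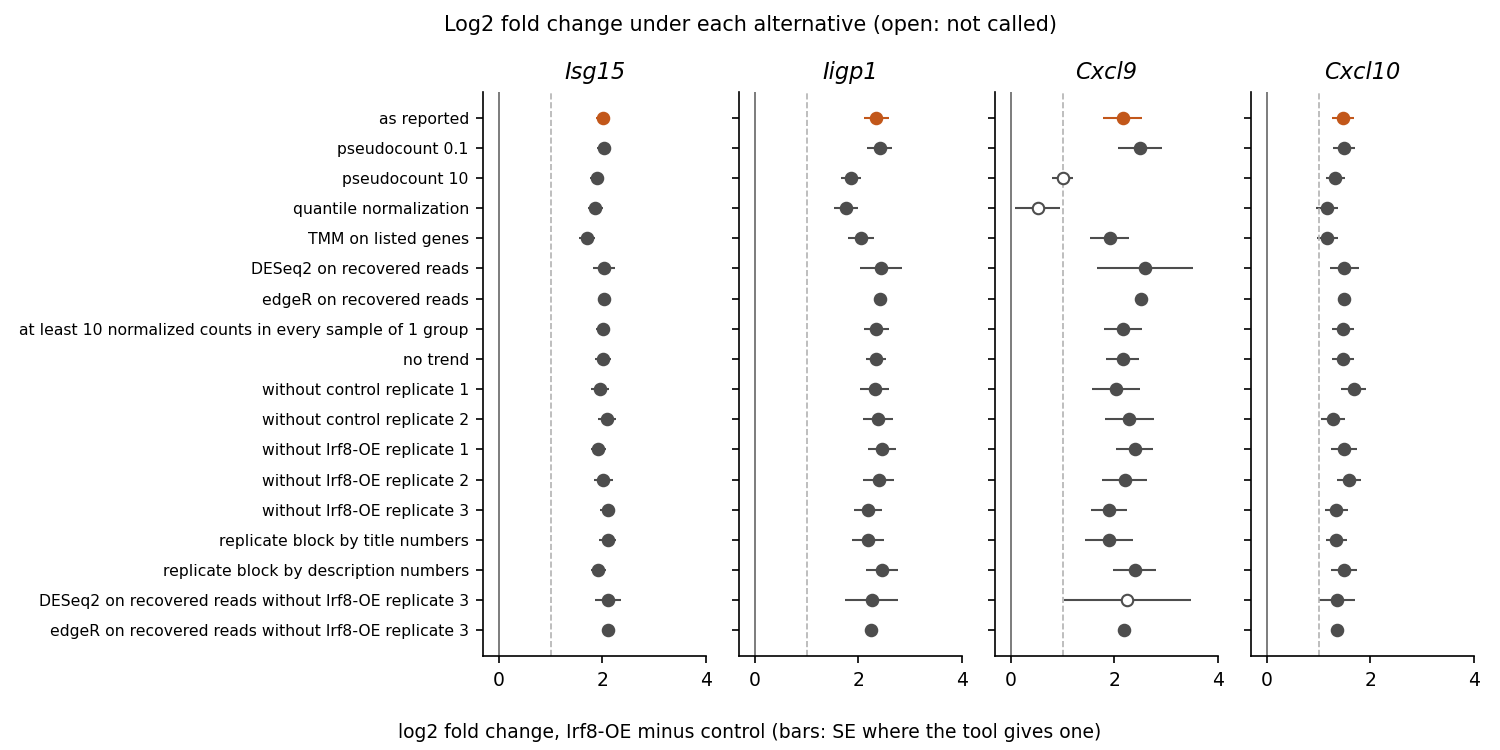
Log2 fold change of *Irf8*-OE minus control for the 4 genes as reported (orange) and under each alternative (grey), with the SE where the tool gives one; open circles were not called, and the dashed line is the threshold of 1. *Isg15*, *Iigp1* and *Cxcl10* stayed above 1 throughout, and *Cxcl9* was not called under 3 alternatives.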

How the data were processed

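RNA-seq of 3 *Irf8*-OE and 2 control samples was analysed. Samples were grouped by their titles, and table columns were matched to them by the sample descriptions. The deposited signal values are normalized counts, gene reads that the authors divided by 1 size factor per sample. The submitters' processing notes name fastp, HISAT2 2.0.5, featureCounts 1.5.0-p3, DESeq2 1.20.0 and edgeR 3.22.5 on mm10, without their roles. The authors' deposited columns of log2 fold change, p-value and adjusted p-value, and their group means, were not used. Gene coordinates are those of the authors' table, of whose 1355 genes 1313 have the same start and end in GENCODE vM21, and gene lengths are the other deposited column used. Reads were recovered as whole multiples of 1 step per sample (100% of values within 0.01 reads).

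Genes were fitted with limma 3.58.1 in R 4.3.3, using its trended empirical Bayes step, on log2(normalized counts + 1), which understates the change of low genes, with Benjamini-Hochberg adjustment over all 1355 genes and calls at an adjusted p under 0.05 with a log2 fold change beyond 1 in either direction. The steps were tested on simulated data in which most genes did not differ between the groups. Every listed gene was selected as different, so that test does not cover the setting here. The variance trend was also drawn from these selected genes, so the SEs and adjusted p-values can be too small. Alternatives were pseudocounts of 0.1 and 10, quantile normalization, TMM, DESeq2 1.42.0 and edgeR 4.0.16 on recovered reads, a filter of 10 normalized counts in every sample of 1 group, no trend, a replicate block, and leaving out each sample. DESeq2 and edgeR were also run without *Irf8*-OE sample 3, because 1 read there was worth close to 1 normalized count (1.004). This choice was made after seeing the data. The values of sample 3 were whole multiples of its step, as in the other samples.

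The 4 genes and all gene lists were chosen with earlier results of these data known. The rule for named genes took *Irf8*, the sex-linked genes, the 3 most abundant listed genes per pathway list (all where at most 5 were listed), the 2 most abundant per marker list, and the 3 nearest profiles per gene. Genomic sequence is from the RefSeq promoter table, in which 3 of the 4 genes were matched.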

Additional observations from a re-analysis of the deposited data

Results flagged for a closer look

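*Xist*, which belongs to no comparison of the report, had a mean of 12437 normalized counts in *Irf8*-OE, above a control level of at most 1.12, in cells described as coming from male mice.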

How the results depend on the processing

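*Isg15*, *Iigp1* and *Cxcl10* kept their direction and their call in all 17 alternatives, at log2 fold changes of 1.71 to 2.12, 1.76 to 2.46 and 1.16 to 1.68. *Cxcl9* kept its direction in all 17 and its call in 14. It was not called with a pseudocount of 10 (0.999, adjusted p = 0.0015 from limma), after quantile normalization (0.52, adjusted p = 0.28 from limma) or in DESeq2 without *Irf8*-OE sample 3 (2.25, adjusted p = 0.065), while edgeR without that sample called it at 2.20. With the pseudocount its 2 to 22 reads per sample lie near the amount added, and for the other changes the cause was not tested. Leaving out 1 sample at a time gave 1.92 to 2.10 for *Isg15*, 2.19 to 2.46 for *Iigp1*, 1.89 to 2.39 for *Cxcl9* and 1.27 to 1.68 for *Cxcl10*, with each still called. *Irf8* was at 0.92, under the threshold of 1, with TMM estimated on the listed genes, and at 1.17 to 1.29 with 1 sample left out.

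Quantile normalization moved the median of all listed genes by -0.36 and TMM by -0.31. Both were estimated on the listed genes alone, all of them selected as different between the groups. They therefore cannot show what scaling over all genes would give. Relative to the median of all listed genes *Cxcl9* stood at 1.02 as reported, 1.08 under TMM and -0.27 after quantile normalization, and the other 3 genes stayed above it. Genes called higher fell from 787 to 509 after quantile normalization, which made 49.4% of the calls higher ones against 58.6%, and 51.4% under TMM. The other interferon-list genes called higher, with *Irf8* kept in the lists, ranged from 27 to 36. The nearest profiles shared 2 and 1 of 12 genes with a pseudocount of 10 and with Pearson's correlation.

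The deviations of same-numbered samples from their group means correlated at 0.027 and 0.021 by the titles and at -0.021 and 0.0089 by the descriptions. With 2 controls their deviations are exact opposites, so the -0.021 repeats the 0.021 with its sign reversed. Over genes selected as different in these samples, these values cannot settle whether the numbers pair the samples. With the replicate block by title numbers the log2 fold changes were 2.10, 2.19, 1.89 and 1.34 for *Isg15*, *Iigp1*, *Cxcl9* and *Cxcl10*, and by description numbers 1.92, 2.46, 2.39 and 1.496, with no call changed. Depth limits *Cxcl9* most, since its controls had 2 and 3 reads.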
